A study of Mus musculus with 8 samples.

Results

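The forkhead genes encode transcription factors, and 43 of the 22609 gene symbols counted in the dental papilla libraries belong to them. They were taken by symbol, as Fox followed by a subfamily letter from a to s and a number, with Foxm1, a cell division factor, left out. This rule uses symbols and no measured value. Of the 43 genes, 27 passed the filter on low counts and were tested, among 13121 genes tested in all.

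The RNA came from the iBmp2 fx/fx cells, immortalized mouse dental papilla cells that carry floxed Bmp2 alleles, and from the iBmp2 ko/ko cells, in which Bmp2 is deleted. They are called fx/fx and ko/ko cells here. Both are cultured cell lines derived from the mesenchyme of the tooth germ, with 1 line per genotype, so that genotype and line cannot be told apart. Their total RNA was sequenced after 6, 24, 48 and 72 h of culture, with 1 library per genotype and time and thus 8 libraries. The series' design text has a culture time of 8 h in place of the 6 h of the library labels, and the labels were followed. Genotypes were compared over the 6 libraries of 6, 48 and 72 h, the times that the study's methods list, with 3 libraries per genotype. Culture times therefore serve as replicates, and p-values measure the spread between these libraries. The 24 h libraries are given beside them, and the library labelled ko/ko 24 h is shown apart.

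Forkhead proteins bind DNA through a winged-helix domain whose recognition helix lies in the major groove, and the letter of a member names its subfamily. Several subfamilies act in mesenchyme: Foxf1a, Foxf2 and Foxl1 are known targets of Hedgehog signalling, Foxc1 and Foxc2 act in neural crest derived mesenchyme of the head, and Foxd1 marks stromal progenitors of several organs. The FoxO factors carry insulin and growth factor signals, because Akt phosphorylates them and keeps them out of the nucleus. Foxk, Foxj2, Foxj3, Foxn2, Foxn3 and Foxp genes are expressed in many tissues.

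The share of the protein that defines the family can be read in the coding sequence. The stretch of 30 bases that encodes the recognition helix, read from the coding transcripts of GENCODE M1 on mm9, was found in 40 of the 42 forkhead genes with a coding transcript there. It is shown for Foxq1, Foxa3, Foxd1 and Foxf1a, which had the largest fold changes between genotypes, and for Foxf2, the closest relative of Foxf1a. Capitals mark the bases that are identical in all 5.
Foxq1: TGGcgcAACtcCgTgCGcCAcaacCTcTCg
Foxf2: TGGaagAACtcCgTgCGcCAcaacCTcTCg
Foxf1a: TGGaagAACtcCgTgCGcCAcaacCTgTCg
Foxd1: TGGcagAACagCaTcCGtCAcaacCTgTCg
Foxa3: TGGcagAACtcCaTcCGgCAttcgCTgTCc
In this stretch 16 of 30 bases were shared by all 5 genes. Foxf1a and Foxf2 were identical at 29 of 30 bases and Foxq1 and Foxf2 at 27, whereas Foxq1 and Foxa3 were identical at 19. The stretches lie at chr13:31651260-31651289 on the plus strand for Foxq1, chr13:31718378-31718407 on the plus strand for Foxf2, chr8:123608572-123608601 on the plus strand for Foxf1a, chr13:99125094-99125123 on the plus strand for Foxd1 and chr7:19600033-19600062 on the minus strand for Foxa3, all in coding exons of mm9. Despite this likeness, windows of 50 transcript bases, the read length in the labels, of Foxf1a, Foxf2, Foxd1 and Foxa3 matched no coding transcript of another gene (0% of their windows). For Foxq1, 40.5% of the windows matched another gene on either strand. Noncoding transcripts and the rest of the genome were not compared, so whether each read could be assigned was not tested.

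The depth was 25890110 to 32415665 reads on genes (median 29985177), and 3 counts, the smallest level taken as detectable, corresponded to 0.0930 to 0.122 CPM (counts scaled to the reads on genes of a library and its TMM factor). Such floors cover counting error only. The forkhead genes took 0.0790 to 0.102% of these reads. Mesenchymal genes were abundant in every library, with Vim at 1256 CPM or more, Col1a1 and Col1a2 above it, and Runx2, Twist1 and Prrx1 were present, while Dlx6, Lhx8, Barx1 and the odontoblast gene Dspp had at most 3 counts in any library. Summed over 6 genes, glial markers were at 3.41 to 17.5 CPM, and the sums of epithelial, endothelial and immune markers were 14.3 CPM or less in each library.

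The library labelled ko/ko 24 h stood apart from its genotype. Over the 27 tested forkhead genes its median absolute log2 difference was 0.084 from the fx/fx library of 6 h, against 0.519, 0.472 and 0.537 from the ko/ko libraries of 6, 48 and 72 h and 0.402 from the fx/fx library of its own culture time. Of the 27 genes, 23 were within 0.25 of the fx/fx library of 6 h on the log2 scale, and Foxd2 was farthest at 0.39. Over all 13121 tested genes the same 2 libraries were the closest of all 28 pairs, with a median difference of 0.070, and 92.2% of the genes were within 0.25. The pair still differed beyond sampling noise, since the chi-square per gene averaged 5.46 over 11554 genes where counting error alone gives 1, but the next closest pair, fx/fx at 24 and 48 h, averaged 44.6. Bmp2, the deleted gene, was not detected in 7 libraries and had a single read in the remaining one, fx/fx at 24 h, below the floor of 3 counts, so it could not check the genotype of any library, and whether its label or its cells differ was not tested. Results that use it are given with and without it.

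Per exon length, Foxk2 had the highest level in the fx/fx cells, Foxf1a, Foxf2 and Foxp4 were also among the highest, and the 27 genes spanned more than 2 orders of magnitude (RPKM, the CPM divided by the exon length). Foxk2, a widely expressed factor, had 26.5, 25.9 and 29.7 RPKM in the fx/fx cells at 6, 48 and 72 h and 20.5, 25.4 and 26.9 RPKM in the ko/ko cells. Its genotypes overlapped, with a log2 fold change of -0.18 ± 0.17 (SE, n = 3 per genotype, edgeR adjusted p = 0.733). At the low end, Foxp3, the factor of regulatory T cells, had 0.0515 to 0.156 RPKM over the 8 libraries, and Foxn1, the factor of thymic and hair epithelium, 0.0408 to 0.355 RPKM.

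**Figure D1:**
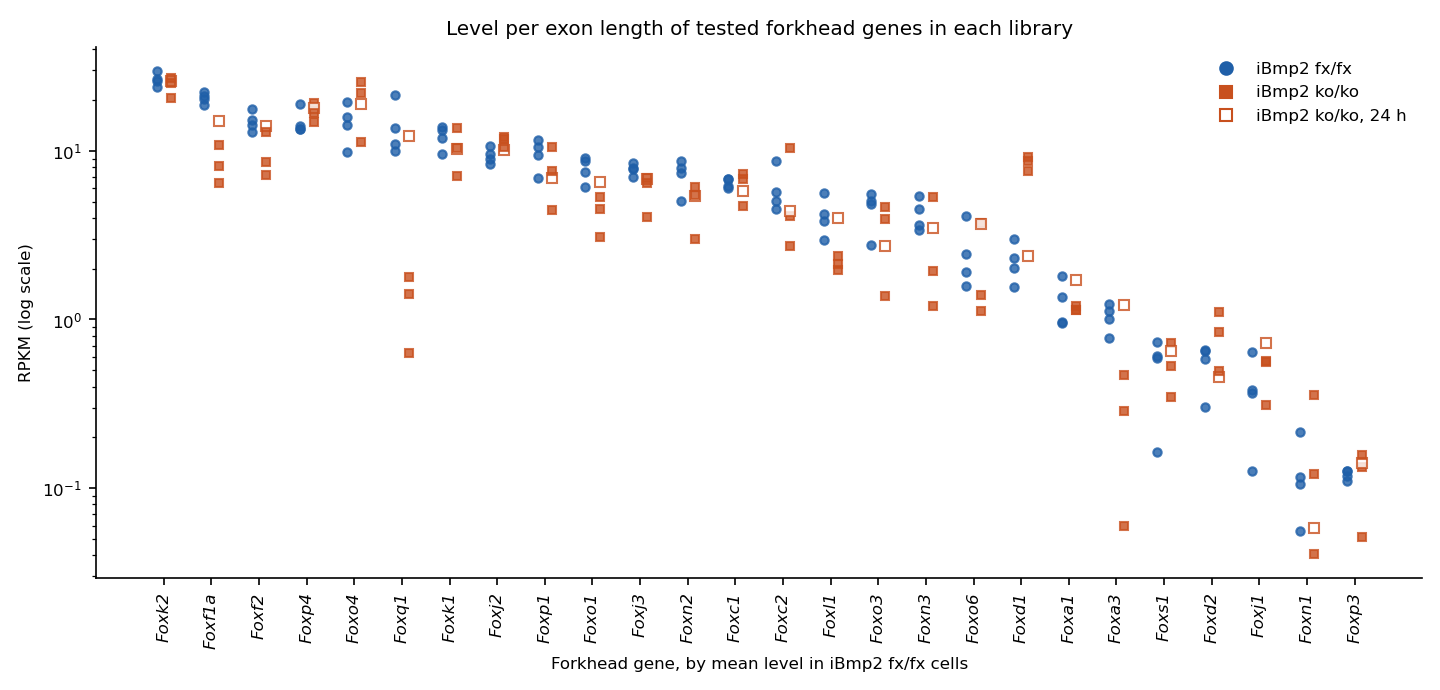
Level of the tested forkhead genes, all but 1 of the 27, in each of the 8 libraries, in RPKM on a log scale, ordered by the mean of the fx/fx cells at 6, 48 and 72 h; circles are fx/fx libraries, filled squares ko/ko libraries and the open square the library labelled ko/ko 24 h. The filled squares of Foxq1 lie between 0.632 and 1.79 RPKM, below all its circles, and those of Foxd1 between 7.59 and 9.26 RPKM, above all its circles.

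The other 16 forkhead genes did not pass the filter. Foxb2, Foxe3, Foxi1, Foxi2, Foxi3 and Foxn4 had 0 reads in all 8 libraries, which is below the level that 3 counts can show. Foxa2, Foxb1, Foxd3, Foxd4, Foxe1, Foxl2, Foxp2, Foxr1 and Foxr2 had at most 2 reads in any library, and Foxh1, the partner of Smad2 in nodal signalling, had 2 to 12 reads. Genes of the gut, otic and ocular lineages such as Foxa2, Foxi1 and Foxe3 were therefore not detectable at this depth.

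The genotype comparison asked which forkhead genes differed when Bmp2 was deleted. At an adjusted p of at most 0.05, 2 of the 27 tested forkhead genes were called, Foxq1 as downregulated and Foxd1 as upregulated, beside 2.22% of all genes tested (1.3% downregulated and 0.915% upregulated). At the limit of the study, a log2 fold change beyond 1 in either direction and a p under 0.05, read here as unadjusted, 5 were called, beside 7.35% of all genes. Foxa3, Foxf1a and Foxl1 were downregulated in addition, which made 4 of the 27 downregulated beside 4.04% of all genes. Same-time libraries varied together, and with culture time as a block 8 forkhead genes were called, 7 of them downregulated, beside 22.7% of all genes in either direction and 11.4% downregulated. Foxf2, Foxo1 and Foxn2 joined in this fit. In all, 19 of the 27 log2 fold changes were below 0, beside 46.4% of all genes, and their median was -0.25 against 0.034 for all genes. In this bulk RNA, fewer cells that express a gene and less RNA per cell cannot be told apart.

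**Figure D2:**
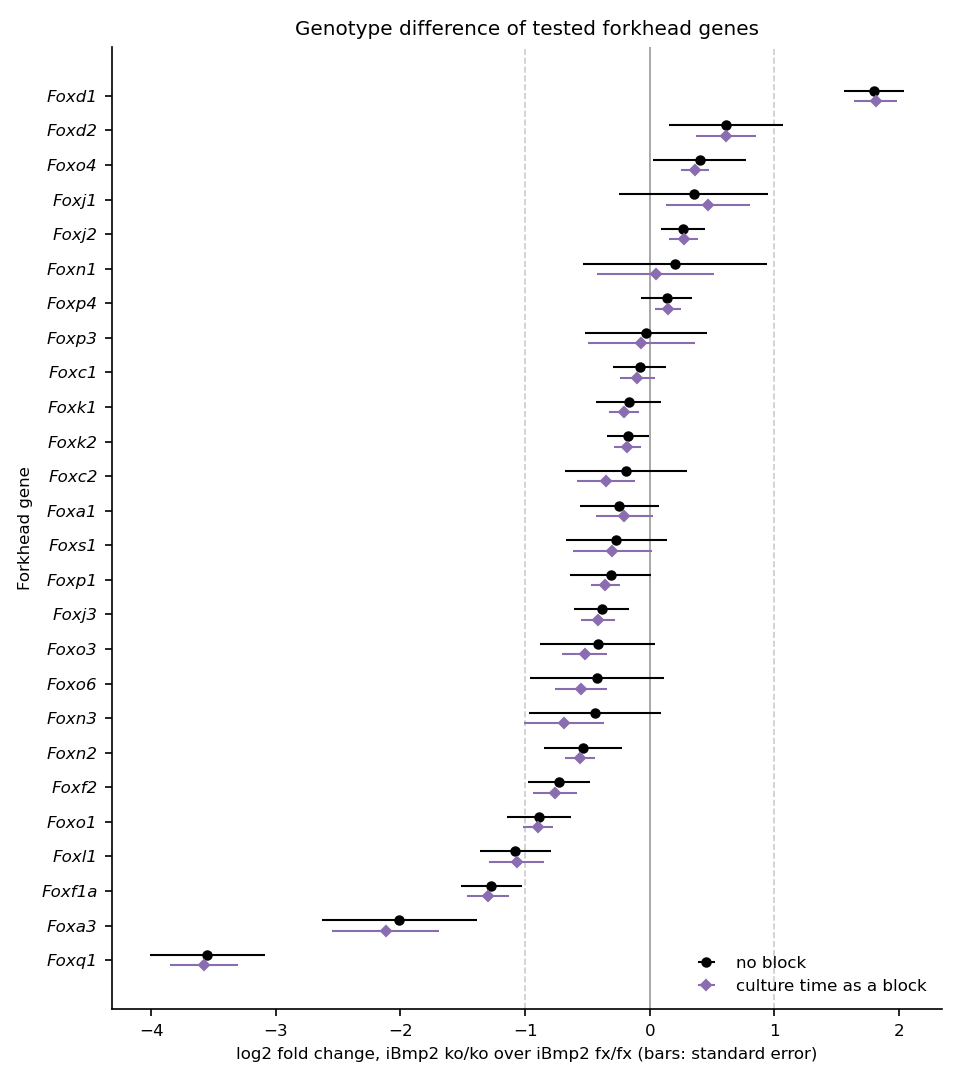
Log2 fold change of the tested forkhead genes, all but 1 of the 27, ko/ko over fx/fx, over the 6 libraries of 6, 48 and 72 h; circles are the edgeR fit without a block and diamonds the fit with culture time as a block, bars are standard errors and dashed lines mark the fold limit of the study. Foxq1 at -3.55 and Foxa3 at -2.01 lie farthest below 0 and Foxd1 at 1.80 farthest above it, and the bars of most genes are shorter with the block.

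The widest difference was that of Foxq1, a factor known from hair and stomach development. Its level was 38.0, 59.7 and 28.0 CPM in the fx/fx cells at 6, 48 and 72 h and 1.77, 5.01 and 3.95 CPM in the ko/ko cells, from 845 to 1928 reads and 54 to 154 reads. All 3 ko/ko libraries were far below all fx/fx libraries. The means were 41.9 ± 16.2 and 3.58 ± 1.65 CPM (SD, n = 3), and the log2 fold change was -3.55 ± 0.46 (SE), 11.7-fold lower, with an edgeR adjusted p of 0.0157. At 24 h the order was not the same: the fx/fx library had 30.7 CPM and the library labelled ko/ko 34.3 CPM. Over all 8 libraries the log2 fold change was -1.79 with an adjusted p of 0.489, and without the fx/fx library of 48 h or the ko/ko library of 48 h the adjusted p was 0.0746 or 0.0812. The annotation of mm9 (chr13:31650039-31652839, plus strand) places exons of A530084C06Rik on the opposite strand over 41.6% of the exon bases of Foxq1. The strand setting of the counting is not given in the sources used here, and reads of the 2 genes could not be told apart where they overlap.

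Foxd1, a factor of stromal progenitors, was the forkhead gene called as upregulated. It had 7.40, 5.70 and 4.96 CPM in the fx/fx cells and 21.5, 18.7 and 22.8 CPM in the ko/ko cells at 6, 48 and 72 h. The ko/ko libraries of these times lay close to each other and above all fx/fx libraries. The log2 fold change was 1.80 ± 0.24 (SE, n = 3 per genotype), 3.49-fold higher, with an edgeR adjusted p of 0.0165, and the block gave 1.81 with an adjusted p of 0.000645. At 24 h the levels were 3.82 CPM in the fx/fx library and 5.86 CPM in the library labelled ko/ko, which lay nearer to the fx/fx cells. Over all 8 libraries the log2 fold change was 1.66 with an adjusted p of 0.483. The adjusted p was 0.117 without the fx/fx library of 48 h, 0.0637 without the ko/ko library of 6 h and 0.0812 without that of 48 h. Foxd2, the other tested member of the subfamily, had 1.72, 1.70 and 0.794 CPM in the fx/fx cells and 2.89, 2.21 and 1.30 CPM in the ko/ko cells, a log2 fold change of 0.61 ± 0.46 with an adjusted p of 0.637.

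Foxf1a and Foxf2, mesenchymal factors of the same subfamily that respond to Hedgehog ligands in the gut and lung, were each called as downregulated with the block at the adjusted limit, and over the same 6 libraries edgeR without a block placed both outside it. Foxf1a had 22.7, 24.9 and 27.2 CPM in the fx/fx cells and 7.84, 13.2 and 9.90 CPM in the ko/ko cells. The genotypes did not overlap at these times, and they did not overlap over all 8 libraries, since the 24 h levels were 25.8 and 18.4 CPM. The log2 fold change was -1.27 ± 0.24 (SE, n = 3 per genotype) with an edgeR adjusted p of 0.0505, just outside the limit, and with culture time as a block -1.30 with an adjusted p of 0.00227. With the fx/fx library of 24 h included and the library labelled ko/ko 24 h left out it was -1.29 with an adjusted p of 0.0148. Over all 8 libraries the adjusted p was 0.483.

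Foxf2 had 33.7, 42.1 and 36.2 CPM in the fx/fx cells and 17.0, 20.2 and 30.5 CPM in the ko/ko cells. The genotypes did not overlap, but the ko/ko library of 72 h came close to the fx/fx library of 6 h. Its log2 fold change was -0.73 ± 0.25 with an adjusted p of 0.246, and with the block -0.76 with an adjusted p of 0.0194. At 24 h the levels were 30.4 CPM in the fx/fx library and 33.3 CPM in the library labelled ko/ko.

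Foxl1, a factor of the mesenchyme beneath gut epithelium, was scarcer, with 126 to 196 reads in the fx/fx and 63 to 71 reads in the ko/ko libraries of 6, 48 and 72 h. Its levels were 4.59, 6.07 and 4.17 CPM against 2.13, 2.31 and 2.57 CPM, without overlap. This gave a log2 fold change of -1.08 ± 0.29 with an adjusted p of 0.137, and with the block -1.07 with an adjusted p of 0.0141. The library labelled ko/ko 24 h had 4.33 CPM, above the 3.22 CPM of the fx/fx library of that time.

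Foxa3, an endoderm and liver factor, was near the lower end of what was tested. It had 81, 74 and 62 reads in the fx/fx cells and 29, 18 and 3 reads in the ko/ko cells at 6, 48 and 72 h. Every ko/ko library of these times was below every fx/fx library, and that of 72 h was at the floor of 3 counts. A log2 fold change of -2.01 ± 0.62 was fitted, with an adjusted p of 0.204, and of -2.12 with the block, with an adjusted p of 0.0130. It was -2.65 without the ko/ko library of 6 h and -1.01 over all 8 libraries, and neither was called. At 24 h there were 44 reads in the fx/fx library and 67 in the library labelled ko/ko. Foxa1, its relative, had 117, 112 and 89 reads in the ko/ko cells against 185, 100 and 130, with overlapping genotypes and a log2 fold change of -0.25 ± 0.32.

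Among the FoxO genes, Foxo1 had 34.1, 48.6 and 50.6 CPM in the fx/fx cells and 17.2, 25.2 and 29.6 CPM in the ko/ko cells. Each genotype had its lowest level at 6 h and its highest at 72 h, and the genotypes did not overlap. The log2 fold change was -0.89 ± 0.26 with an adjusted p of 0.176, and with the block -0.90 with an adjusted p of 0.00236. At 24 h the levels were 41.5 and 36.3 CPM. The lncRNA RP24-337A16.1 overlaps 12.1% of the exon bases of Foxo1 on the opposite strand, and its own log2 fold change was -1.29, so the reads of this stretch are uncertain. Foxo3, which like Foxo1 is held in check by Akt, had a log2 fold change of -0.42 ± 0.46 and Foxo6, a brain-enriched member, of -0.42 ± 0.54. Foxo6 was at -1.18 without the ko/ko library of 6 h, with an adjusted p of 0.386, and at -0.071 without the fx/fx library of 6 h. Foxo4 had 67.5, 55.1 and 34.5 CPM in the fx/fx cells and 89.7, 76.8 and 39.2 CPM in the ko/ko cells. It was higher in the ko/ko library at each of these times, though the genotypes overlapped across times, and its log2 fold change was 0.40 ± 0.37 (adjusted p = 0.719, and 0.0575 with the block). None of these 3 was called by edgeR in either fit.

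Foxn2, a widely expressed factor, had 37.0, 54.1 and 64.1 CPM in the fx/fx cells and 22.0, 40.2 and 44.8 CPM in the ko/ko cells. It was lower in the ko/ko library at each of these times, but the genotypes overlapped across times. At 24 h the library labelled ko/ko had 39.7 CPM, near the ko/ko library of 48 h and the fx/fx library of 6 h. The fx/fx library of 24 h had 58.4 CPM. The log2 fold change of Foxn2 was -0.54 ± 0.31 with an adjusted p of 0.513, and with the block -0.56 with an adjusted p of 0.0156. Foxn3, a repressor linked to the cell cycle checkpoint, had 10.3, 12.8 and 9.66 CPM against 3.41, 15.2 and 5.46 CPM, an overlap that the ko/ko library of 48 h made, and a log2 fold change of -0.44 ± 0.53. It was -1.30 without that library, with an adjusted p of 0.204, and -0.079 without the ko/ko library of 6 h.

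**Figure D3:**
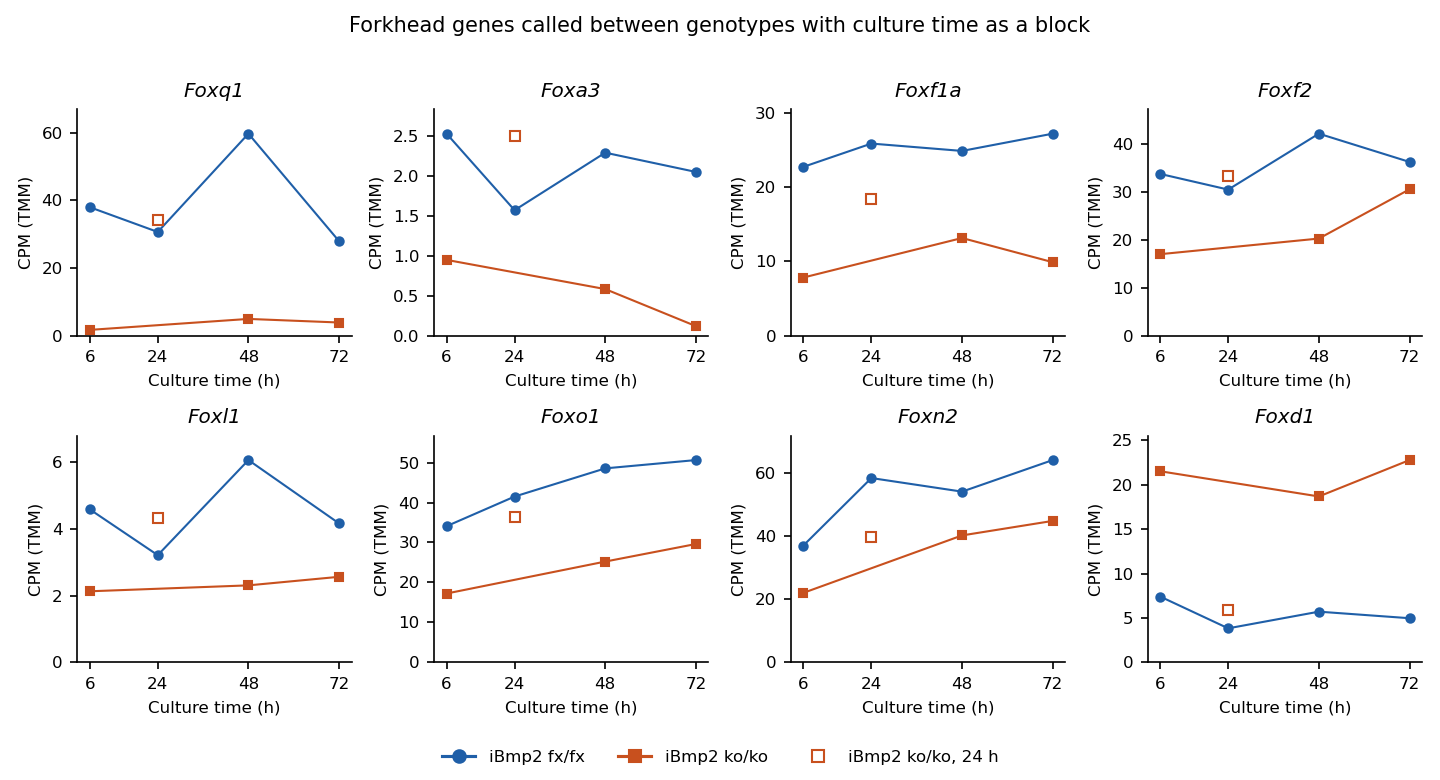
Level in CPM, scaled by TMM factors, against culture time in hours for the 8 forkhead genes called between genotypes with culture time as a block; circles are fx/fx libraries, squares ko/ko libraries, each point is 1 library, and the open square is the library labelled ko/ko 24 h. For Foxq1 and Foxd1 the open square lies beside the fx/fx points, at 34.3 and 5.86 CPM, while the filled squares lie apart from them.

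The remaining tested genes described here had log2 fold changes between -0.39 and 0.35 and none was called by edgeR in either fit. Foxc1, a factor of head mesenchyme and the eye, had 24.6, 27.3 and 27.3 CPM in the fx/fx cells and 18.8, 29.1 and 27.1 CPM in the ko/ko cells. Foxc2, its partner in mesenchyme and vessels, spanned 13.7 to 23.6 CPM and 7.42 to 28.2 CPM, with the lowest and the highest of the 6 levels both in ko/ko libraries. Foxj3, a factor of muscle and germ cells, had 75.2, 84.2 and 86.1 CPM in the fx/fx cells and 43.5, 74.7 and 69.8 CPM in the ko/ko cells. The genotypes of Foxj3 did not overlap, over 6 or over 8 libraries, and the log2 fold change was -0.39 ± 0.22 (adjusted p = 0.512, and 0.0636 with the block). Foxj2, a widely expressed relative, had a log2 fold change of 0.27 ± 0.18, and Foxj1, the factor of motile cilia, of 0.35 ± 0.60 from 10 to 54 reads per library. Foxk1, a partner of Foxk2 in metabolic control, was at -0.17 ± 0.26 and Foxp1, Foxp3 and Foxp4 were at -0.31 ± 0.33, -0.03 ± 0.49 and 0.14 ± 0.21. Foxn1 was at 0.20 ± 0.74 and Foxs1, a gene known from pericytes, at -0.27 ± 0.40, both from at most 31 reads per library.

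Without any model, the libraries of 6, 48 and 72 h did not overlap between genotypes for 9 of the 27 forkhead genes, beside 20.1% of all genes tested. Among them, Foxd1 was higher and Foxa3, Foxf1a, Foxf2, Foxj3, Foxl1, Foxo1 and Foxq1 were lower in the ko/ko cells. Over all 8 libraries, 2 of them, Foxf1a and Foxj3, did not overlap, beside 3.8% of all genes. Without the library labelled ko/ko 24 h, 8 did not, beside 17.9%. For each gene that library was set against both genotype means over 6, 48 and 72 h, and it was nearer to the fx/fx mean for 17 of the 27 forkhead genes, and for 65.3% of all genes tested. This held for 7 of the 8 genes called with the block, all but Foxn2. The 24 h difference had the opposite sign to the fitted fold change for 10 of the 27, beside 46.3% of all genes. Over all 8 libraries edgeR without a block called 0 forkhead genes at the adjusted limit, beside 0% of all genes, and 3 were at an unadjusted p under 0.05, beside 10.2%. There the limit of the study called Foxd1 and Foxf1a, beside 3.55% of all genes. With the block over all 8 libraries edgeR called 0 forkhead genes, beside 0.337% of all genes, with 11 at an unadjusted p under 0.05, beside 24.8%, and without the library labelled ko/ko 24 h edgeR called Foxd1, Foxf1a and Foxq1, beside 3.66%. DESeq2 over the 6 libraries called 6 forkhead genes at the adjusted limit, beside 6.65%.

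Several of these genes lie side by side. On chromosome 13 of mm9, Foxq1, Foxf2 and Foxc1 follow each other on the plus strand, with 64845 and 175242 bases between them. Their log2 fold changes were -3.55, -0.73 and -0.08, so that the fold change was smaller for each gene farther from Foxq1, an order that was not tested. On chromosome 8, Foxf1a, Foxc2 and Foxl1 follow each other within 29219 and 9047 bases, with log2 fold changes of -1.27, -0.19 and -1.08. Foxc2, the middle gene of this group, was not called in either fit while its neighbours were called with the block, but the difference between them was not tested. Without the ko/ko library of 72 h Foxc2 was at -0.93, with an adjusted p of 0.225. Of 11 other genes tested within 500 kb of these groups, 0 were called by edgeR, beside 2.22% of all genes, with 4 at an unadjusted p under 0.05, beside 14%, and 1 by DESeq2, beside 6.65%. With the block 4 were called, beside 22.7% of all genes: Irf8, a factor of immune cells with means of 1.28 CPM in the fx/fx and 0.318 CPM in the ko/ko cells, and Zcchc14 at a log2 fold change of -0.51 were downregulated, and Cox4i1 at 0.44 and Map1lc3b at 0.38 were upregulated. Mthfsd, between Foxf1a and Foxc2, was at 0.35 and was not called in either fit.

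Fendrr, a lncRNA that is transcribed away from Foxf1a and is known from lateral mesoderm, is listed in the lncRNA table under its older symbol 1110050K14Rik. It lies on the opposite strand, with 1353 bases between its start and that of Foxf1a (chr8:123578782-123606932). It had 747, 612 and 427 reads in the fx/fx cells and 206, 150 and 72 reads in the ko/ko cells at 6, 48 and 72 h, and 583 and 619 reads at 24 h. The genotypes did not overlap at 6, 48 and 72 h, and the 24 h libraries were alike and high. The log2 fold change was -1.94 ± 0.36 with an edgeR adjusted p of 0.0509, and with the block -1.99 with an adjusted p of 0.00051. The lncRNAs Gm11377 and 1700018A04Rik, 3779 and 4522 bases beyond Foxq1, had at most 61 reads in a library and log2 fold changes of -1.43 and -1.37 (adjusted p = 0.358 and 0.349). Foxd2os, listed as 9130206I24Rik beside Foxd2, was at 0.11. Of 26 lncRNAs within 50 kb of a forkhead gene, 11 were tested and 0 were called, beside 0.895% of all lncRNAs, with 4 at an unadjusted p under 0.05, beside 10.5%. With the block 2 were called, Fendrr and RP24-337A16.1, beside 9.84%.

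Promoters were read from the RefSeq table of GRCm38.p6, 250 bases before to 50 after a start, which held 33 promoters of 28 of the 43 forkhead genes. Those of Foxq1, Foxf1a and Foxl1 are not among them. Foxa3 and Foxd1, which moved in opposite directions, are shown with GGCGCC in capitals, a palindrome known as a GC-rich Smad site. The Foxa3 promoter is at chr7:19023490-19023789 on the minus strand and the Foxd1 promoter at chr13:98353995-98354294 on the plus strand.
Foxa3: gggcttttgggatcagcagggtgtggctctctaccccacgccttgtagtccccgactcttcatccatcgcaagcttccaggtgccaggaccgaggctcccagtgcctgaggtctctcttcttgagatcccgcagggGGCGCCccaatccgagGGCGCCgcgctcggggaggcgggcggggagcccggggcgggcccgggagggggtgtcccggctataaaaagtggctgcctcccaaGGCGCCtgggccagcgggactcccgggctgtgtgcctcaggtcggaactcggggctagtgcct
Foxd1: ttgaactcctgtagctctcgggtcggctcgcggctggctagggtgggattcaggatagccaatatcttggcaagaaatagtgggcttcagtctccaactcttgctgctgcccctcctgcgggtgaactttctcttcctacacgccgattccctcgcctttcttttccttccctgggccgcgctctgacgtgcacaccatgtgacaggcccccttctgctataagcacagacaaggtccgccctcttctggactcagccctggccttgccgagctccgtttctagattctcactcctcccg
On both strands, GGCGCC was found 3 times in the Foxa3 window and 0 times in that of Foxd1, and also 0 times in those of Foxo1 and Foxf2, which were downregulated with the block. It was in 5 of the 33 forkhead promoters, of Foxa2, Foxa3, Foxc1 and Foxp1, and in 11.9% of all 32851 promoters of this length. The forkhead motif TGTTTAC was in 1 of the 33, that of Foxa1, and in 3.65% of all, and the Smad motif GTCTAGAC was in 0 of the 33 and in 0.213% of all. These matches describe letters, not binding.

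Across culture time, the question was whether forkhead levels rose or fell from 6 to 72 h in both genotypes. In the edgeR fit with genotype and the log2 of hours, 0 of the 27 forkhead genes and 0% of all genes were called at the adjusted limit. At an unadjusted p under 0.05 the slope of 7 forkhead genes was positive or negative, beside 21.1% of all genes. DESeq2 called 5 of the 27 at the adjusted limit, beside 7.45% of all genes. The genes below are therefore described by their levels.

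Foxo3 had 19.8, 36.5 and 39.7 CPM in the fx/fx cells at 6, 48 and 72 h and 9.87, 33.7 and 28.4 CPM in the ko/ko cells. Its lowest level was at 6 h in each genotype, and its slope was 0.37 ± 0.08 (SE) on the log2 scale per doubling of time, with an unadjusted p of 0.00291 in edgeR and an adjusted p of 0.000725 in DESeq2. Foxp1, a broadly expressed repressor, had 82.1, 112 and 139 CPM in the fx/fx cells and 53.6, 90.4 and 125 CPM in the ko/ko cells, with a slope of 0.24 ± 0.05. Foxn2 and Foxo1, whose levels are given above, had slopes of 0.24 ± 0.05 and 0.18 ± 0.05. In all 4 genes the level of 6 h was the lowest of the 3 in each genotype, and DESeq2 called them all.

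Foxo4 went the other way from Foxo1 and Foxo3 in the levels of each genotype, with its highest value at 6 h and its lowest at 72 h, and a slope of -0.23 ± 0.09. Foxo6 had 10.7, 6.38 and 5.03 CPM in the fx/fx cells and 9.78, 3.65 and 2.93 CPM in the ko/ko cells, with a slope of -0.40 ± 0.08 and a DESeq2 adjusted p of 0.00150. Foxp4, a relative of Foxp1, had 93.7, 68.7 and 66.6 CPM and 95.1, 72.9 and 83.1 CPM, with a slope of -0.12 ± 0.04. At 24 h the fx/fx library was at 4.11 CPM for Foxo6 and 126 CPM for Foxp1, nearer to the later fx/fx libraries than to the earliest, whereas the library labelled ko/ko was at 9.59 CPM for Foxo6, near both libraries of 6 h, and at 81.9 CPM for Foxp1, near the fx/fx library of 6 h. The interaction of genotype and culture time was called for 0 of the 27 forkhead genes by edgeR, with 0 at an unadjusted p under 0.05, beside 0% and 0.48% of all genes.

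**Figure D4:**
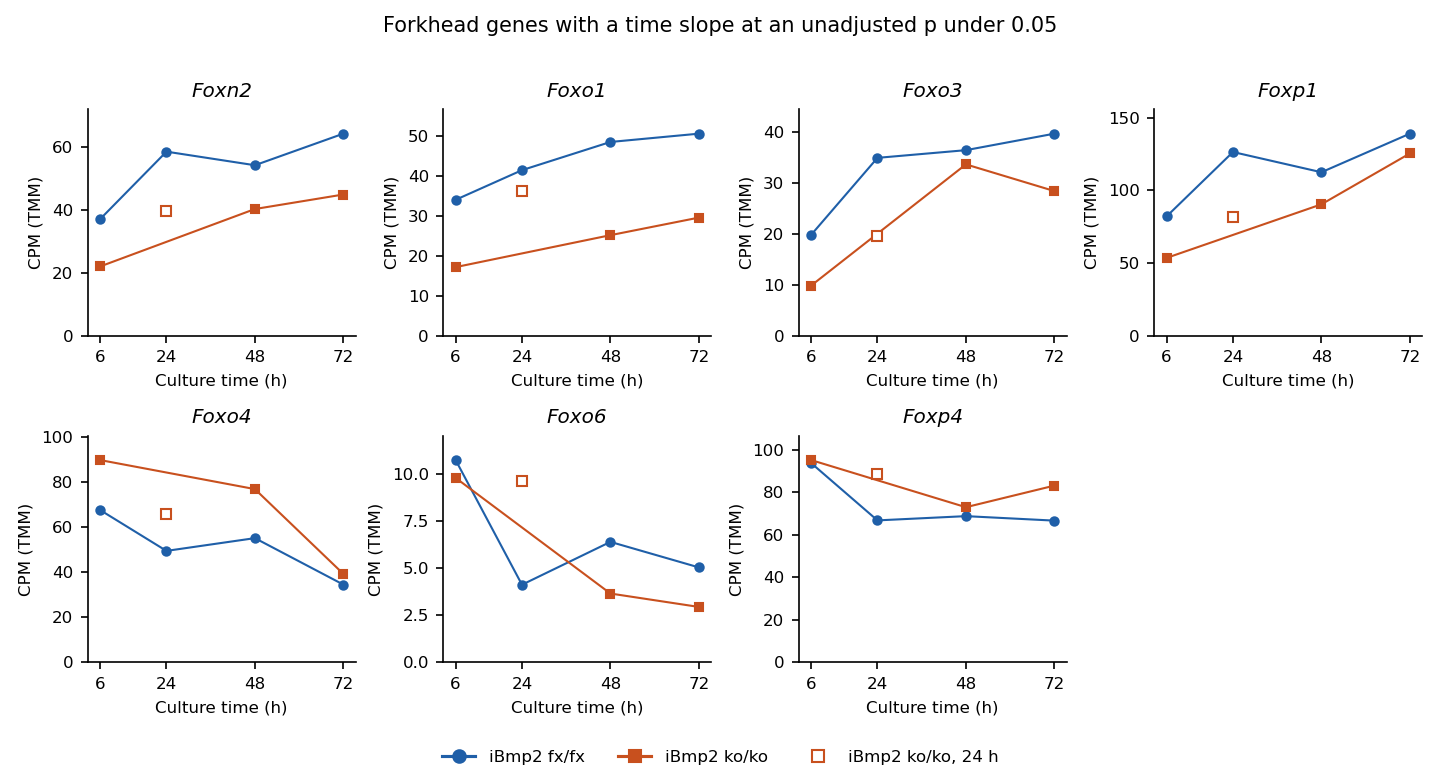
Level in CPM, scaled by TMM factors, against culture time in hours for the 7 forkhead genes whose slope on the log2 of time had an unadjusted p under 0.05 in edgeR; circles are fx/fx libraries, squares ko/ko libraries, each point is 1 library, and the open square is the library labelled ko/ko 24 h. Foxo3 and Foxp1 are lowest at 6 h in both genotypes, and Foxo4 is highest at 6 h in both.

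The genes that act on FoxO factors and the genes known to respond to them were listed as well. For all lists that follow, the shares of all genes tested are 2.22% called by edgeR, 14% at an unadjusted p under 0.05, 6.65% called by DESeq2 and, with the block, 11.3% upregulated and 11.4% downregulated. Of 19 upstream genes tested, from the insulin and IGF receptors to Akt, 0 were called by edgeR, with 3 at an unadjusted p under 0.05, and 1 by DESeq2. Their median log2 fold change was -0.10, and with the block 1 was upregulated and 3 were downregulated, 4 of 19 beside 22.7% of all genes. The adaptor Irs1 had the widest difference, 0.93 ± 0.28 (adjusted p = 0.185, and 0.00340 with the block), followed by Pik3ca, the catalytic PI3-kinase subunit, at -0.66 ± 0.17 (0.125, and 0.00640 with the block). Of 25 FoxO target genes tested 1 was called, beside 2.22%, and it was Bcl2l11, which encodes the death factor Bim. Of the 25, 5 were at an unadjusted p under 0.05, beside 14%, and 3 were called by DESeq2, beside 6.65%. Bcl2l11 had 70.9, 71.4 and 58.1 CPM in the fx/fx cells and 31.7, 29.7 and 25.7 CPM in the ko/ko cells, without overlap, and a log2 fold change of -1.20 ± 0.19 with an adjusted p of 0.0243. In the library labelled ko/ko 24 h it was at 70.4 CPM. The median of the 25 was 0.20, and with the block 8 were upregulated and 4 downregulated, beside 11.3% and 11.4% of all genes, Klf2 at 1.58 and Cdkn1a at -0.85 among them. The list was not split by the direction in which genes respond to FoxO factors, so the median and counts do not measure FoxO activity.

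Of the Hedgehog genes that lie upstream of Foxf and Foxl genes, 12 were tested and 0 were called by edgeR, with 3 at an unadjusted p under 0.05, and 1 by DESeq2. Shh had 0 reads in all libraries. Gli1, a transcriptional target of the pathway, had 1.09, 0.558 and 1.36 CPM in the fx/fx cells and 3.94, 1.56 and 2.12 CPM in the ko/ko cells, a log2 fold change of 1.35 ± 0.51 (adjusted p = 0.293, and 0.0223 with the block). Its genotypes did not overlap at these times. Hhip, an inhibitor of the ligands, was at 1.19 ± 0.47 and Gli2 at 1.19 ± 0.35, while Ptch1, the receptor, was at -1.04 ± 0.62. With the block 2 of the 12 were upregulated, Gli1 and Gli2, and 4 downregulated, Ptch1, Gli3, Cdon and Gas1, beside 22.7% of all genes in either direction.

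Of 20 partners of forkhead proteins, such as Smads, Tle co-repressors and histone acetylases, 0 were called by edgeR, with 3 at an unadjusted p under 0.05, and 1 by DESeq2. With the block 2 were upregulated and 6 downregulated, beside 22.7% of all genes. Nfatc2, a calcineurin-dependent factor, was at -1.09 ± 0.54 (adjusted p = 0.435, and 0.0499 with the block) and Gatad2b, a subunit of a chromatin remodelling complex, at -0.96 ± 0.47 (adjusted p = 0.434, and 0.0245 with the block). Of 6 tested motile cilia genes linked to Foxj1, 0 were called by edgeR, with 1 at an unadjusted p under 0.05, and 0 by DESeq2. Rsph1, a radial spoke gene, was at -1.98 ± 0.49 (adjusted p = 0.117, and 0.0158 with the block). It had 33, 27 and 21 reads in the fx/fx cells at 6, 48 and 72 h and 8, 3 and 7 in the ko/ko cells. Its ko/ko library of 48 h was thus at the floor of 3 counts. Ccdc39, a dynein regulator, was at 0.92 ± 0.41 (adjusted p = 0.389, and 0.0291 with the block). Markers of other cell types were low. The 8 epithelial markers summed to 1.00 to 3.06 CPM in the fx/fx libraries and to 0.489 to 1.54 CPM in the ko/ko libraries of 6, 48 and 72 h, with 2.72 CPM in the library labelled ko/ko 24 h. The 6 endothelial markers summed to 1.95 to 3.31 CPM and 1.59 to 3.65 CPM, with 2.31 CPM in that library. The 7 immune markers summed to 4.37 to 14.3 CPM and 2.82 to 3.55 CPM, without overlap, but to 6.12 CPM in that library. All 5 of these markers that were tested were called with the block at the adjusted limit. Without the block, none was inside the adjusted limit, and all 5 were past the fold limit of the study, beside 7.35% of all genes. Krt14 (log2 fold change -1.39), Kdr (-1.32), Cd68 (-1.43) and Csf1r (-1.62) were lower in the ko/ko cells and Tek (1.62) was higher, so that the tested endothelial markers, Kdr and Tek, went in opposite directions. Ambn, Emcn and Emr1 had 0 reads in all 8 libraries, 1 of the 8, 2 of the 6 and 2 of the 7 markers passed the filter, and the part of such cells in the forkhead differences was not tested.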

How the data were processed

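Total RNA of fx/fx and ko/ko cells was sequenced at 4 culture times, 1 library each. The submitters' processing notes name CASAVA 1.8.2, TopHat2 2.0.8b and HTSeq on mm9. The authors deposited whole-number counts per gene symbol and per lncRNA symbol, without normalization, and the 5 summary counters of HTSeq were left out. The annotation and strand setting of the counting are not given in the sources used here, and reads with several positions, 41.3 to 49.6% of alignments, were not counted. For lncRNAs, library sizes and TMM factors came from the table of genes.

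The forkhead genes, gene lists and tests were chosen with earlier results of these data known. Counts were tested over the whole table with edgeR 4.0.16 in R 4.3.3: TMM factors, the filter on low counts (at least 10 counts, 15 in total), the quasi-likelihood test and Benjamini-Hochberg adjustment over all genes tested. The standard error is the absolute log2 fold change divided by the square root of the F statistic. CPM values are scaled by TMM factors, and RPKM values use the exon length of GENCODE M1, in which all 43 forkhead genes had a location. Same-time libraries of both genotypes deviated together, with correlations across genes of 0.735, 0.572 and 0.866 at 6, 48 and 72 h, so calls with culture time as a block are given where they differ. The study gives a p limit of 0.05 in its text, with no adjustment named, and q-values elsewhere; the unadjusted reading was used for its limit. Alternatives were this block, all 8 libraries, 7 libraries without the library labelled ko/ko 24 h, DESeq2 1.42.0, RLE size factors, limma 3.58.1 (log2 CPM after adding 0.5), no filter, time in hours and leaving out each library. Simulated counts for the genotype comparison had 13121 genes, no shared variation of culture times and the same fixed spread for every gene. Genes of low counts were not among those changed. On these counts edgeR recovered 99 of 100 genes changed by 1 and 100 of 100 changed by 2 on the log2 scale. The spread of the real libraries was not matched, so genes uncalled in them cannot be read as unchanged.

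Named genes were the forkhead genes, with full statistics for those called, past the study's limit or called with the block, and for the 3 of highest RPKM. The values of 1 tested forkhead gene are not reported here, and it is left out of the plots, while counts over the 27 tested genes include it. From each list of related genes, the called members were named, or the 2 with the largest fold change. Klf2, Cdkn1a, Gli2, Gli3, Ptch1, Cdon, Gas1, Mthfsd, Irf8, Zcchc14, Cox4i1, Map1lc3b, Krt14, Kdr, Tek, Cd68 and Csf1r were named after their values were seen. Python 3.11.15 (pandas 2.3.3, numpy 2.4.6, matplotlib 3.10.9) was used for summaries.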

Additional observations from a re-analysis of the deposited data

Results flagged for a closer look

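In 4 of 54 groups of 4 libraries, a forkhead gene had a library far from the other 3 of its genotype by Dixon's criterion, where chance gives about 1 in 20 groups. Foxq1 in the library labelled ko/ko 24 h was at 34.3 CPM, against 1.77 to 5.01 CPM in the other ko/ko libraries. Foxa1 in the same library was at 5.49 CPM, against 3.63 to 3.84 CPM. Foxj3 in the ko/ko library of 6 h was low at 43.5 CPM, against 69.8 to 74.7 CPM in the others. Foxp4 in the fx/fx library of 6 h was high at 93.7 CPM, against 66.6 to 68.7 CPM, and the library labelled ko/ko 24 h had 88.3 CPM of Foxp4. So 2 of the 4 were in the library labelled ko/ko 24 h, the one whose forkhead levels were closest to those of the fx/fx library of 6 h.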

How the results depend on the processing

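The number of forkhead genes called between genotypes was 2 in edgeR without a block, beside 2.22% of all genes. It was 8 with culture time as a replicate block (22.7% of all genes) and 6 with DESeq2 (6.65%). Over all 8 libraries it was 0 without or with the block (0% and 0.337%). It was 3 over 7 libraries (3.66%) and 3 with limma, RLE size factors or no filter. With the block over 7 libraries, a setting chosen after seeing the data, it was 8. Leaving out each of the 6 libraries gave 0 to 2, with 0 without fx replicate 3 or ko replicate 3 (the libraries of 48 h) and 1 without ko replicate 1 (6 h). The number past the study's fold limit was 5, beside 7.35% of all genes. It was 2 over all 8 libraries (3.55%), 3 with the block there (5.08%), and 4 to 7 when leaving out each library. The shares of all genes for limma, RLE size factors, no filter, the block over 7 libraries and left-out libraries are not given here. Whether the whole table moved with these counts was not tested. Forkhead genes without overlap fell from 9 (20.1% of all genes) to 2 over all 8 libraries (3.8%). The number called for culture time was 5 with DESeq2 (7.45% of all genes) against 0 with edgeR (0%). Foxq1, Foxa3, Foxf1a, Foxf2, Foxl1, Foxo1, Foxn2 and Foxd1 had the same direction under all 15 alternatives. Changes of sign were met among uncalled genes: over all 8 libraries Foxa1 was at 0.042, Foxp3 at 0.0243 and Foxs1 at 0.11, and with the block there Foxa1 at 0.068, Foxn1 at -0.0028 and Foxs1 at 0.17. Over 7 libraries Foxs1 was at 0.0168, and limma had Foxn1 at -0.17. Leaving out libraries turned Foxc1 (lowest -0.21, highest 0.079), Foxc2 (-0.93 to 0.15), Foxj1 (-0.061 to 0.96), Foxk1 (-0.42 to 0.033), Foxn1 (-0.84 to 0.67) and Foxp3 (-0.33 to 0.29). The cause of these changes was not tested. In the fit without a block, with 3 libraries per genotype, standard errors were wide for uncalled genes such as Foxn1 (0.74), Foxo6 (0.54) and Foxc2 (0.49). With culture time as a block over the same libraries they were 0.47, 0.21 and 0.23. Such errors limited what could be seen, in genes of few and of many reads.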
